A study of Homo sapiens with 6 samples.

Results

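The genes CXCL8, CXCL2, CXCL3, CXCL1, CXCL5 and CXCL6, which encode chemokines that attract neutrophils, were examined in U251, an established cell line from a human glioblastoma. They were picked by gene name in a table of 58735 genes, so that they are 6 of 58735, and each name occurred once. The rule uses gene names and no measured value, but the genes were proposed with earlier results of these data known. RNA was sequenced from cells that received an equal volume of sterile deionized water (NC group, n = 3) and from cells that received 10 ng/mL of recombinant human tumor necrosis factor-α (TNF-α group, n = 3), both for 24 h. Cells of both groups were grown in the same serum-containing medium, and the labels describe independent biological replicates of 1 line in culture and name no engineered change and no other cell type. The study asked which transcripts this low dose of the cytokine changes in glioblastoma cells.

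These chemokines carry a Glu-Leu-Arg motif ahead of the CXC cysteine pair and act on the receptors CXCR1 and CXCR2, through which they draw neutrophils out of blood and promote vessel growth. CXCL8, also called interleukin 8, and CXCL6 act on both receptors, and the others act mainly on CXCR2. Their genes lie together on chromosome 4, their promoters hold sites for NF-kB, and several of their mRNAs are held short-lived by AU-rich elements until an inflammatory signal arrives. Gliomas are known to secrete CXCL8.

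To show what the 6 genes share before any expression value is given, the promoter sequence around each start site was read from RefSeq on GRCh38.p14. A 300-base promoter was found for 6 of 6 genes. The 150 bases from 140 before the start site to 10 after it are printed 5′ to 3′ on the strand of the gene, and capitals mark the letters GGAATTTCC, which fall within the NF-kB core pattern GGANNTTCC. The windows are chr4:73740429-73740578 (plus strand), chr4:74099186-74099335 (minus), chr4:74038680-74038829 (minus), chr4:73869253-73869402 (plus), chr4:73998668-73998817 (minus) and chr4:73836538-73836687 (plus).
CXCL8: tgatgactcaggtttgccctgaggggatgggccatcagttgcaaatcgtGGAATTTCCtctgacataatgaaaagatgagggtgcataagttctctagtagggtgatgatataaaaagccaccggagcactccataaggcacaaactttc
CXCL2: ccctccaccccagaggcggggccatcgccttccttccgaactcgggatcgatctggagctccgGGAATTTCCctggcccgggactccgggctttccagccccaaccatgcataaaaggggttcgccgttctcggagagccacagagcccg
CXCL3: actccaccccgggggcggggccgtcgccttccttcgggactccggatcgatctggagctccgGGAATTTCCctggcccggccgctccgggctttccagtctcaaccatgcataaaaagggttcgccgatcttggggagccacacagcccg
CXCL1: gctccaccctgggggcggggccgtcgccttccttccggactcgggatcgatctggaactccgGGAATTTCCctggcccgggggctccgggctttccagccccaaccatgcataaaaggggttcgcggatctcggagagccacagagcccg
CXCL5: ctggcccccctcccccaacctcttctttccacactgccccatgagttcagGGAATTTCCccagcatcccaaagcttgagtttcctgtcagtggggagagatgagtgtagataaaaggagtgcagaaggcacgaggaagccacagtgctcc
CXCL6: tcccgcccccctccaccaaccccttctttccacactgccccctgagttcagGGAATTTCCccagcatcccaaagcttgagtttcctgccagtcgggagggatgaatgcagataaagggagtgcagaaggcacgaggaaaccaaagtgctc

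All 6 promoters held the same 9 letters on the strand of the gene. The first letter lay 91 bases upstream of the start site in CXCL8, 77 in CXCL2, 78 in CXCL3, 78 in CXCL1, 90 in CXCL5 and 89 in CXCL6. These start sites are those of RefSeq. The gene spans given below are from GENCODE and begin further upstream for every gene but CXCL1. Read with 1 more base in front, the match was TGGAATTTCC in CXCL8 and GGGAATTTCC in the other 5. On either strand, GGANNTTCC was present in 4.56% and GGAATTTCC in 0.461% of the 35116 promoters of this length, and GGGAATTTCC in 0.145%. The AP-1 pattern TGANTCA, present in 7.71% of promoters, was found in CXCL8 alone of the 6, as TGACTCA beginning 137 bases upstream of the start. TATAAA, present in 11.5% of promoters, was likewise found in CXCL8 alone, 31 bases upstream. A match is a stretch of letters and says nothing of binding in these cells.

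The sequences also placed CXCL1, CXCL2 and CXCL3 together and CXCL5 with CXCL6. Over the aligned part of the 300-base promoters, CXCL2 and CXCL1 were identical at 90.2% of bases, CXCL3 and CXCL1 at 86.6%, CXCL2 and CXCL3 at 84.3%, and CXCL5 and CXCL6 at 85.4%. The coding parts of CXCL2, CXCL3 and CXCL1 were identical at 92.5% to 94.4% of aligned bases and those of CXCL5 and CXCL6 at 87.5%. Stretches this similar can blur the assignment of reads. Of the 50-base stretches of the principal transcript, 9.24% in CXCL2, 5.26% in CXCL3 and 5.73% in CXCL1 also occurred in another of these 3 genes, and 1.12% of those in CXCL5 occurred in GLYR1. None of the 100-base stretches of any of the 6 transcripts occurred in another gene, and CXCL8 and CXCL6 shared no 50-base stretch.

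The libraries held 31992167 to 37897044 reads in genes, so depth was similar. TNF-α replicates 2 and 3 stood apart from the other 4 libraries. Reads in genes over 8 kb were 16.6% and 17.9% there against 28.8% to 29.1% elsewhere, and ribosomal protein genes took 7.30% and 6.26% against 2.62% to 2.90%. The labels gave no batch. Of the 6 glioma and glial markers examined, VIM, NES, SOX2, GFAP and EGFR were detected in every library. S100B had 8 reads in NC replicate 2, 4 in TNF-α replicate 3 and 0 in the others. The leukocyte gene PTPRC and the T cell genes CD3E and CD3D were at 0 in every library. The 4 neutrophil markers had 0 to 3 reads per library in all, with FCGR3B and MPO at 0. Monocyte markers summed to 33 to 80 reads, nearly all of CD14, endothelial markers to 32 to 51 and platelet markers to 6 to 23. Values below are FPKM, fragments per kilobase of gene, as deposited. The library size behind them was 0.693 and 0.759 of the reads in genes in TNF-α replicates 2 and 3, against 0.925 to 0.959 elsewhere. The same share of reads thus gives a higher FPKM in TNF-α replicates 2 and 3. The whole reads behind them were recovered and are given where they are few. P-values measure the spread between these 6 libraries.

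Under TNF-α, CXCL8, CXCL2 and CXCL3 rose 11.2- to 18.1-fold in FPKM, and CXCL1, CXCL5 and CXCL6 had 0 to 4 reads per library. In cultures sequenced in bulk, a change in the number of cells that express a gene and in RNA per cell cannot be told apart. The test, limma on log2(FPKM + 1), covered the 12136 genes that had 1 FPKM or more in 3 or more libraries, and calls required an adjusted p below 0.05. The genes CXCL8, CXCL2 and CXCL3 entered it through both groups and all 3 were called higher, against 0.717% of all genes tested called higher, 0.297% called lower and 1.01% called in either direction. The other 3 genes did not reach the minimum in any library and were not tested.

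CXCL8 (ENSG00000169429, chromosome 4, 73740506 to 73743716, plus strand, GRCh38) measured 30.5, 31.6 and 26.5 FPKM in NC replicates 1 to 3 and 638, 418 and 548 FPKM in TNF-α replicates 1 to 3. Every TNF-α library thus lay far above every NC library. Of all genes tested, 14.8% had every TNF-α library above every NC library. For CXCL8, TNF-α replicate 1 was the highest and replicate 2 the lowest of the treated group. The means were 29.5 ± 2.65 and 534 ± 111 FPKM (SD, n = 3 per group), an 18.1-fold difference. Per library, the fold over the NC mean was 21.6, 14.2 and 18.6. The log2 fold change was 4.12 (SE 0.21, 95% interval 3.61 to 4.62), with an adjusted p of 0.000996 from limma. With the pseudocount of 1, it was the rank 2 log2 fold change of all genes tested. An exact permutation test gave p = 0.1, the smallest that 3 against 3 libraries allow. CXCL8 moved from rank 1425 to 1840 among all genes by FPKM in the NC libraries to ranks 30, 150 and 91 in the TNF-α libraries.

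CXCL2 (ENSG00000081041, chromosome 4, 74097035 to 74099293, minus strand) encodes a chemokine known from mouse models as a main neutrophil attractant of injured tissue. Its values were 1.84, 1.50 and 1.74 FPKM with water and 20.2, 21.3 and 24.4 FPKM with TNF-α. The groups did not overlap. In FPKM, TNF-α replicate 1, the highest for CXCL8, was the lowest of the 3 for CXCL2. In reads (972, 830 and 887 in TNF-α replicates 1 to 3) and in RPM (28.0, 22.2 and 27.7), replicate 1 was the highest. The means of 1.70 ± 0.175 and 22.0 ± 2.16 FPKM (n = 3 per group) differed 12.9-fold. The log2 fold change was 3.09 (SE 0.13, 95% interval 2.77 to 3.40, adjusted p 0.000665 from limma, exact permutation p 0.1).

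CXCL3 (ENSG00000163734, chromosome 4, 74036589 to 74038807, minus strand), a close copy of CXCL2, measured 1.62, 1.46 and 1.45 FPKM with water and 17.1, 15.5 and 17.8 FPKM with TNF-α. In FPKM its TNF-α libraries were the tightest of the 3 genes relative to their mean, again with no overlap between groups. In RPM those of CXCL2 were tighter (26.0 ± 3.28, against 29.7 ± 5.65 for CXCL3). The means were 1.51 ± 0.0986 and 16.8 ± 1.17 FPKM (n = 3 per group), an 11.2-fold difference. The log2 fold change was 2.83 (SE 0.12, 95% interval 2.54 to 3.11, adjusted p 0.000665 from limma, exact permutation p 0.1). The pseudocount of 1 understates the changes of CXCL2 and CXCL3, whose NC values are low. With a pseudocount of 0.1 they were 3.62 and 3.40, and that of CXCL8 was 4.16.

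CXCL1 (ENSG00000163739, chromosome 4, 73869393 to 73871242, plus strand), also known as melanoma growth-stimulating activity, had 4 reads in NC replicate 3 (0.0961 FPKM) and 0 in the other 5 libraries. A count of 0 allows up to 3 reads, which corresponds to 0.0641 to 0.0953 FPKM for this gene. CXCL5 (ENSG00000163735, chromosome 4, 73995642 to 73998779, minus strand), known as an epithelial neutrophil attractant, had 0 reads in each NC library and 2 reads in each TNF-α library, or 0.0245 to 0.0325 FPKM, within the 3-read limit of 0.0327 to 0.0487 FPKM. CXCL6 (ENSG00000124875, chromosome 4, 73836497 to 73849064, plus strand) had 0 reads in all 6 libraries, where 3 reads would be 0.0380 to 0.0566 FPKM. No difference between the groups was detectable for these 3 genes at this depth, and no fold is given. In the fit without a minimum, the log2 fold change was -0.04 for CXCL1 (adjusted p 0.541) and 0.04 for CXCL5 (adjusted p 0.356). Such limits cover counting error only.

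**Figure D1:**
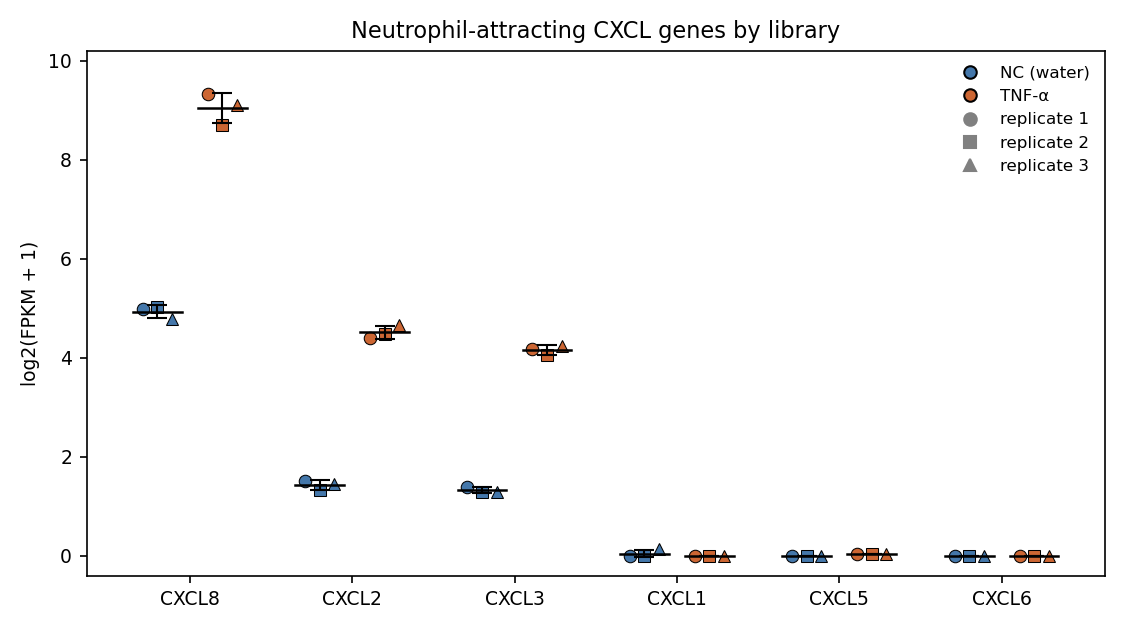
Each point is 1 library, on a log2(FPKM + 1) axis, for NC (water, blue) and TNF-α (orange) cells, with the replicate number as the symbol and the mean ± SD of 3 libraries as bars. CXCL8, CXCL2 and CXCL3 separate by group without overlap, from 30.5, 31.6 and 26.5 to 638, 418 and 548 FPKM for CXCL8, whereas CXCL1, CXCL5 and CXCL6 lie at or near 0 in both groups.

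The contrast between near-copies was large. In the TNF-α libraries CXCL2 was at least 239-fold and CXCL3 at least 174-fold above the 3-read limit of CXCL1 in the same library, per length. The CXCL1 promoter printed above has the same capital letters within 1 base of the same place. In the NC libraries, where CXCL2 and CXCL3 had 74 to 130 reads each, CXCL1 was already below them. The transcript of CXCL2 rested on 972, 830 and 887 reads in the TNF-α libraries and that of CXCL3 on 1222, 894 and 961 reads, and how reads that match several genes were treated is not given in the sources used here.

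The 3 rises were then set against the libraries that stood apart. With TNF-α replicate 1 and the 3 NC libraries alone, the log2 fold change was 4.39 for CXCL8 (adjusted p 1.12e-05), 2.97 for CXCL2 (3.08e-05) and 2.86 for CXCL3 (2.76e-05), all from limma with the spread taken from the NC libraries. With TNF-α replicates 2 and 3 alone, it was 3.98 (adjusted p 4.72e-06), 3.14 (3.58e-06) and 2.82 (4.04e-06). After a correction of each library for gene length it was 3.73, 2.68 and 2.45, with adjusted p-values of 0.00536, 0.00192 and 0.00536. Of all genes tested, 6.45% were called with TNF-α replicate 1 alone and 79.8% with replicates 2 and 3 alone, so the calls in the latter subset say little by themselves, and the sizes are given for comparison. In RPM, reads scaled to a fixed total of reads in genes, CXCL8 had 66.0, 68.8 and 55.8 with water and 1342, 658 and 946 with TNF-α, a 15.5-fold difference of means. The means of CXCL2 and CXCL3 differed 10.8- and 9.39-fold in RPM. In TPM, FPKM scaled to a fixed sum per library, CXCL8, CXCL2 and CXCL3 differed 13.6-, 9.28- and 8.15-fold.

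To compare the members with each other, their summed FPKM was divided into shares, from which the scale of a library cancels. CXCL8 took 89.8%, 91.4% and 89.0% of the sum with water and 94.5%, 91.9% and 92.8% with TNF-α. Its lowest TNF-α share lay just above its highest NC share. The means were 90.1% ± 1.25 and 93.1% ± 1.31 (n = 3 per group), with an exact permutation p of 0.1 (0.167 adjusted over the 5 genes with any read). CXCL2 took 5.21% ± 0.771 and 3.94% ± 0.870, with overlap (exact p 0.2, adjusted 0.25), and CXCL3 4.62% ± 0.345 and 2.99% ± 0.441, without overlap (exact p 0.1, adjusted 0.167). No share could reach a p below 0.1 in this design. The summed reads of all 6 members were 2733, 2534 and 2128 with water and 48791, 26343 and 32105 with TNF-α.

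Ratios between pairs of members were compared in the same way. The FPKM of CXCL8 was 16.5, 21.0 and 15.2 times that of CXCL2 with water and 31.6, 19.6 and 22.5 times with TNF-α, and these ranges overlapped (log2 difference 0.47, exact permutation p 0.2). Against CXCL3 it was 18.8, 21.7 and 18.4 times with water and 37.2, 26.9 and 30.7 times with TNF-α, without overlap (log2 difference 0.68, exact permutation p 0.1). The ratio of CXCL2 to CXCL3 was 1.03 to 1.21 and 1.18 to 1.37 (log2 difference 0.21, exact permutation p 0.2). Adjusted over the 3 ratios, p was 0.2 for each.

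**Figure D2:**
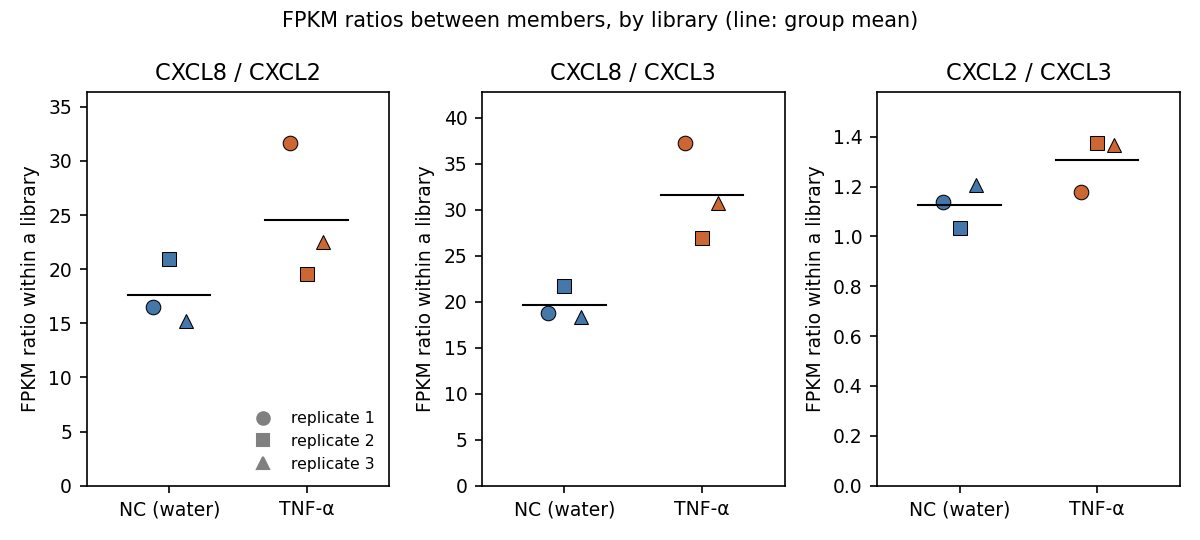
Each panel gives the FPKM ratio of a pair of members within a library, from an axis that starts at 0, for NC (water, blue) and TNF-α (orange) cells, with the line at the group mean (n = 3). The ratio of CXCL8 to CXCL3 does not overlap between groups (18.4 to 21.7 against 26.9 to 37.2), and the other ratios do.

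The order of the levels was CXCL8, then CXCL2 and CXCL3, then CXCL1, CXCL5 and CXCL6, in both groups. CXCL8 exceeded CXCL2 in every library by more than the spread. CXCL2 and CXCL3 were next to each other, their NC ranges overlapped (1.50 to 1.84 and 1.45 to 1.62 FPKM), and their order depended on the length used. FPKM was computed on the merged exons of all transcripts, 1500 bases for CXCL2 and 2219 for CXCL3. On the length of the principal transcript, 1218 and 1075 bases, the means were 2.09 and 27.0 FPKM for CXCL2 and 3.11 and 34.8 FPKM for CXCL3, so that CXCL3 was then the higher of the pair. CXCL8, with a principal transcript of 1705 bases, stayed first on that scale with 39.4 and 713 FPKM. The last 3 genes could not be ordered.

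The stretch of chromosome 4 that holds the cluster was examined next. From the start of CXCL8 to the end of CXCL2 it spans 358.8 kb, and the 3 genes that rose sit at its ends, CXCL8 on one side and CXCL3 and CXCL2 on the other. Between them, the 162.3 kb from CXCL6 to CXCL5 hold 9 genes, 6 of them protein-coding, and 7 of the 9 had 0 reads in every library. These include the platelet chemokine genes PPBP, PF4 and PF4V1. The stretch had 10 reads in all over the 6 libraries, the 4 of CXCL1 and the 6 of CXCL5. Within 500 kb of a member lie 28 other genes, of which 3 were tested and 0 passed the threshold. ANKRD17 had a log2 fold change of -1.18 (adjusted p 0.195), AFP of 0.40 (adjusted p 0.291) and MTHFD2L, which starts next to CXCL2, of 0.35 (adjusted p 0.195). ANKRD17, a gene of 12042 bases of exon, was at 23.7 FPKM in TNF-α replicate 1 and at 5.31 and 6.23 in replicates 2 and 3, the libraries with a low share of reads in long genes, and the part of that share in its value was not tested.

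**Figure D3:**
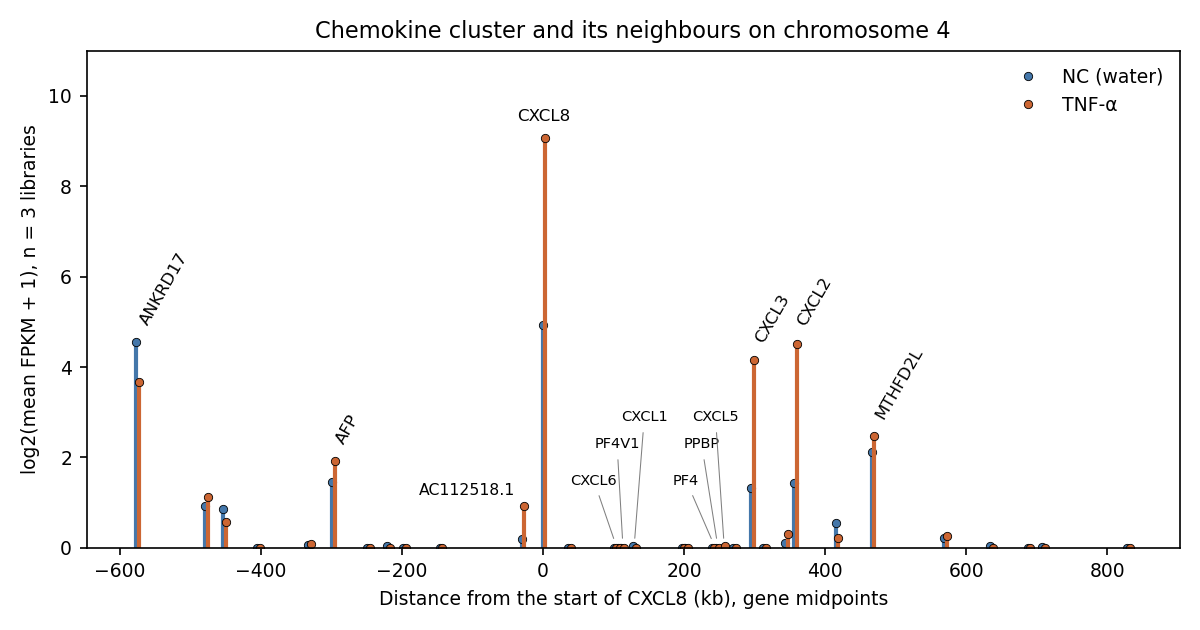
Each gene within 500 kb of a member is drawn at the distance of its midpoint from the start of CXCL8 in kb, with its height as log2(mean FPKM + 1) over 3 libraries for NC (water, blue) and TNF-α (orange) cells. CXCL8 on the left and CXCL3 and CXCL2 on the right stand out under TNF-α, and the stretch between them, from CXCL6 to CXCL5, is at or near 0.

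The receptors of these ligands were looked for in the same cells. CXCR1, CXCR2 and ACKR1, the decoy receptor of red cells and venules, had 0 reads in all 6 libraries. CXCL8, CXCL2 and CXCL3 were thus the ligands detected in both groups, and none of these receptors was detected at this depth.

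Genes that act around these chemokines were counted over 7 lists with 86 genes, of which 56 were tested. Of these, 15 were called higher and 0 lower, beside 0.717% and 0.297% of all genes tested. The same shares stand beside the counts of each list below. Of the 15, 4 reached the minimum through the TNF-α group alone. After the gene length correction 19 list genes were called, 18 of them higher, beside 1.26% of all genes in either direction. With TNF-α replicate 1 as the only treated library, 21 of 50 list genes were called, beside 6.45% of all genes. Without it, 43 of 50 were called in either direction, beside 79.8% of all genes. Without any other single library, 4 to 6 were called, beside 0.101% to 0.151% of all genes. Of the 8 CXC chemokines with other receptors, 3 were tested and 2 rose. CXCL10, a T cell attractant, measured 8.31, 7.10 and 7.62 FPKM with water and 119, 116 and 166 FPKM with TNF-α, with a log2 fold change of 3.94 (SE 0.18, adjusted p 0.000833). CXCL11, which shares its receptor, had a log2 fold change of 3.05 (SE 0.16, adjusted p 0.00104), whereas CXCL16 had 0.31 (adjusted p 0.195). CXCL12, the ligand of CXCR4, was at 0 in every library.

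Of 16 transcription factors and cofactors listed for these promoters, 14 were tested, 5 rose and 0 fell. The median log2 fold change of the 14 was 1.02, against 0.04 over all genes tested, and 14 of 14 values were above 0. Under TPM the median of the 14 was 0.58, against -0.42 over all genes, and 12 of 14 values were above 0. The 5 were RELB (3.48, adjusted p 0.0185) and NFKB2 (2.63, 0.0173), subunits of NF-kB, NFKBIA (2.79, 0.00415), its inhibitor, and the AP-1 subunits JUNB (2.31, 0.0201) and FOSL1 (1.08, 0.0498). RELB had 5.90 to 8.34 FPKM with water and 46.8, 130 and 105 FPKM with TNF-α, so that the order of its treated libraries was the opposite of that of CXCL8. The classical subunits NFKB1 and RELA had log2 fold changes of 0.74 and 0.70 and did not pass (adjusted p 0.121 and 0.194). FOSL1 missed the threshold under 11 of 17 alternatives, and RELB, NFKB2 and JUNB under 7 each and NFKBIA under 4. HOOK2 overlaps 14.2% of the exonic length of JUNB. As the use of strand in counting is not given, reads of such pairs cannot be told apart.

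The regulators of AU-rich mRNA were counted next. All 15 were tested and 1 rose, ZC3H12A, which encodes the RNase Regnase-1, from 3.72 ± 0.423 to 10.9 ± 0.855 FPKM (log2 fold change 1.34, SE 0.13, adjusted p 0.0116). The call of ZC3H12A was lost under 7 of 17 alternatives. The median of the list was -0.0039 and 7 of 15 values were above 0. Under TPM the median of the list was -0.50, against -0.42 over all genes, and 2 of 15 values were above 0. ZFP36, encoding the decay factor tristetraprolin, had a log2 fold change of 0.20 (adjusted p 0.372).

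Among 22 other factors of neutrophil growth, priming and adhesion, 12 were tested and 5 rose. CSF2, IL1B, IL6, TNF and SAA1 were under 1 FPKM in every NC library and reached the test through the TNF-α group alone. Of the other 7 genes, 2 rose, ICAM1 and C3, and the median of the 7 was 0.30. ICAM1, the endothelial and glial ligand of neutrophil integrins, measured 3.25, 3.74 and 4.32 FPKM with water and 75.9, 52.6 and 63.7 FPKM with TNF-α (log2 fold change 3.76, SE 0.18, adjusted p 0.000833), and other annotated genes overlap 23.6% of its exonic length. Complement C3 rose from 1.25 ± 0.218 to 8.32 ± 0.877 FPKM (2.05, adjusted p 0.00316). CSF2, the growth factor GM-CSF (3.66, adjusted p 0.00407), IL1B (2.13, adjusted p 0.0111) and TNF itself (1.52, adjusted p 0.0432) also rose, and all 3 are among those that entered through the TNF-α group. The recombinant protein added to the medium is not part of the RNA value of TNF, which missed the threshold under 8 of 12 alternatives. E-selectin and P-selectin, SELE and SELP, were at 0 in the TNF-α libraries.

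Of 19 proteases that trim these chemokines and proteoglycans that hold them, 12 were tested and 2 rose. The median of the 11 that reached the minimum in both groups was 0.34. CTSS, cathepsin S, rose from 0.425 ± 0.0573 to 5.78 ± 0.591 FPKM (2.25, adjusted p 0.00134) and also entered through the TNF-α group alone. SDC4, a heparan sulphate proteoglycan of the cell surface, rose from 45.5 ± 0.797 to 152 ± 40.0 FPKM (1.68, adjusted p 0.0362). Its TNF-α values were 107, 183 and 167 FPKM, higher in replicates 2 and 3, the libraries that stood apart, and its call was lost under 7 of 17 alternatives.

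**Figure D4:**
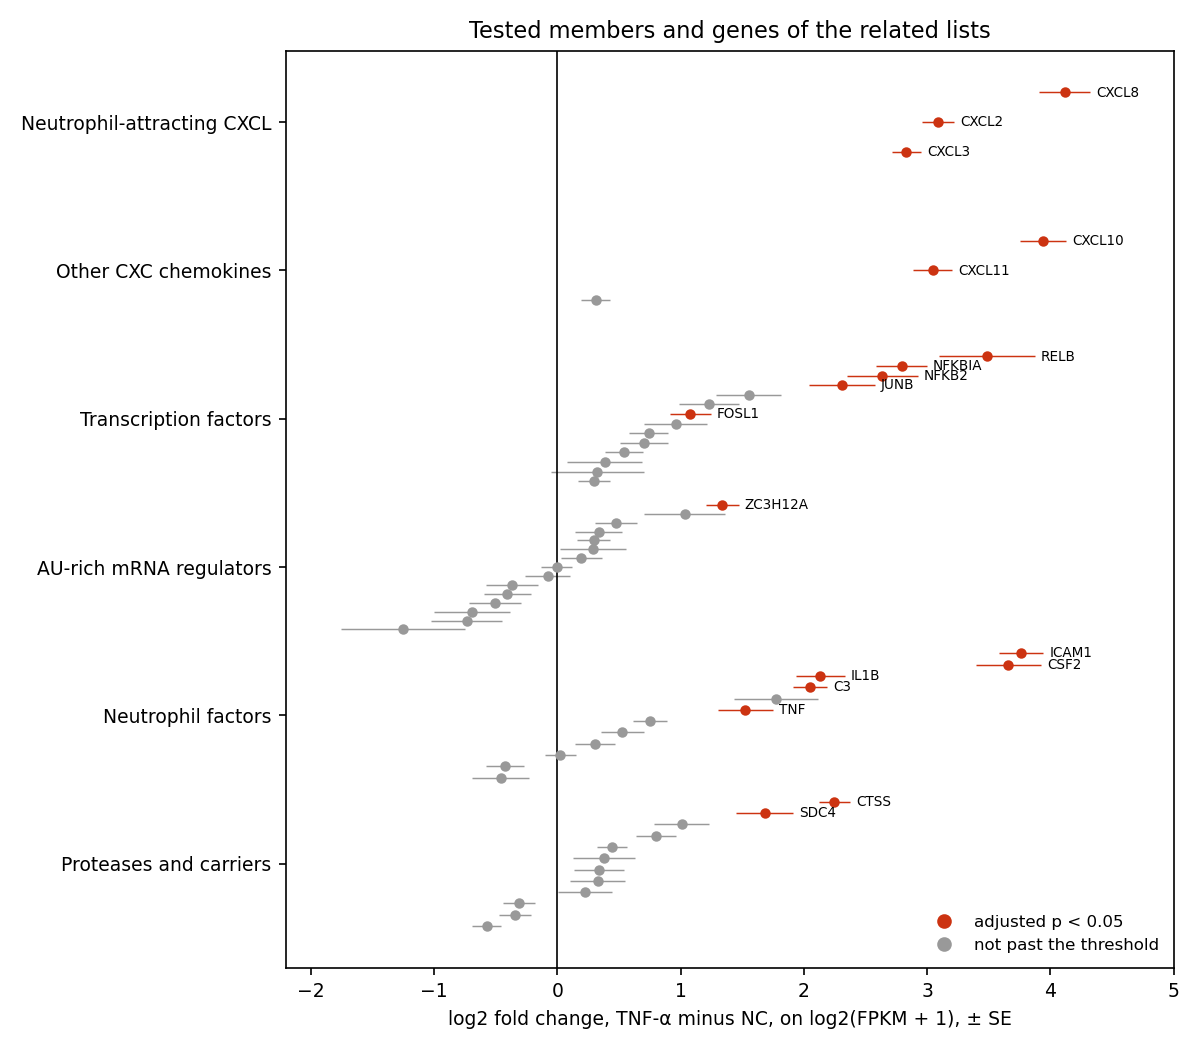
Log2 fold changes (TNF-α minus NC, on log2(FPKM + 1), with SE) of the 3 tested members and the 56 tested genes of the lists, 1 point per gene, red where the adjusted p was under 0.05. CXCL8 at 4.12 lies furthest right, beside CXCL10 at 3.94, and the regulators of AU-rich mRNA scatter around 0 with ZC3H12A at 1.34. The place of CXCL8 depends on the pseudocount. With a pseudocount of 0.1 CXCL8 was at 4.16 and CSF2 at 6.05.

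Finally, the tested genes whose profile over the 6 libraries was closest to each member were found, as the Euclidean distance between log2 ratios to the NC mean. For CXCL8 these were CXCL10 (distance 0.656), ICAM1 (0.731) and TRAF1 (1.36), an adaptor of TNF receptors. For CXCL2 they were SLC12A7 (0.237), a potassium-chloride cotransporter, CXCL11 (0.379) and CXCL3 (0.488). CXCL3 had the same neighbours, SLC12A7 (0.444), CXCL11 (0.480) and CXCL2 (0.488). SLC12A7 went from 0.394 to 10.4 FPKM in the mean and entered the test through the TNF-α group alone. Its closeness to CXCL2 and CXCL3 holds for the pseudocount of 1. With a pseudocount of 0.1 the log2 fold change was 4.41 for SLC12A7, 3.62 for CXCL2 and 3.40 for CXCL3. All distances come from the same 6 libraries.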

How the data were processed

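RNA-seq covered 6 libraries of U251 cells, 3 from the NC group and 3 from the TNF-α group, assigned by their titles. Poly(A) RNA was used. The authors deposited FPKM per gene, 1 column per library, with gene lengths, not pooled and on a linear scale. Per the submitters' processing notes, HISAT2 2.0.5, StringTie 1.3.3b and featureCounts 1.5.0 were among the tools, without a stated role, and the use of strand and the handling of multiply mapped reads are not given in the sources used here. All 58735 genes matched GENCODE 29 on GRCh38 in identifier, name, start, end and merged exon length. A further 6 columns of per-sample values matched no sample here and were not used. FPKM times gene length gave whole multiples of 1 read for 100% of values (tolerance 0.001 reads), with a library size equal to 0.693 to 0.959 of the reads in genes. The lowest were 0.693 and 0.759 in TNF-α replicates 2 and 3.

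Genes with 1 FPKM or more in 3 or more of the 6 libraries were tested on log2(FPKM + 1) with limma 3.58.1 in R 4.3.3 (eBayes with trend, two-sided, Benjamini-Hochberg over 12136 genes, threshold 0.05). Shares, ratios and single genes were compared by exact two-sided permutation tests. Tables and plots used Python 3.11.15, numpy 2.4.6, pandas 2.3.3 and matplotlib 3.10.9, and alignments used Biopython 1.88. The fit was also run on counts simulated from the means and spread of the NC libraries. These counts lack the split among the TNF-α libraries, so that run does not cover it. The members and lists were chosen with earlier results of these data known. Genes named were the 6 members, up to 5 called genes of each list with the largest change, the receptors and cluster chemokines, called genes within 500 kb, and the 3 closest profiles of each tested member. Others were named after their values were seen: CXCL12, CXCL16, NFKB1, RELA, ZFP36, IL6, SAA1, SELE, SELP and the neighbours ANKRD17, AFP and MTHFD2L. The alternatives were pseudocounts of 0.1 and 0.5, other minimums, TPM, centring, a gene length correction, limma-voom on recovered reads, no trend, a replicate block and leaving out each library. The set of NC libraries with TNF-α replicate 1 alone was added after seeing the data.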

Additional observations from a re-analysis of the deposited data

How the results depend on the processing

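The rises of CXCL8, CXCL2 and CXCL3 stayed past the threshold under all 17 alternatives run. Their log2 fold changes ranged over 3.65 to 4.39, 2.68 to 3.68 and 2.45 to 3.47, with adjusted p-values from 3.58e-06 to 0.0253. The differences in share kept their direction under all 8 alternatives run. Under TPM the median of all genes was -0.42, against 0.04 in the main fit, and CXCL8 was at 3.65, CXCL2 at 3.01 and CXCL3 at 2.78. All genes past the threshold numbered 123, but 58 with any FPKM above 0, 79 with an FPKM of at least 5, 58 under TPM and 755 with TNF-α replicate 1 as the only treated library. Leaving out 1 library gave 12 to 9489 genes, the highest without TNF-α replicate 1. The list genes past it numbered 15, but 9 with any FPKM above 0, and 4 to 43 with 1 library left out. The cause of these shifts was not tested. Same-numbered libraries did not deviate together (correlations -0.01, -0.18 and 0.12). With 3 libraries per group and TNF-α replicates 2 and 3 standing apart, this check cannot exclude a pairing. A fit with the replicate number as a block gave 24 genes and 8 list genes, and CXCL8, CXCL2 and CXCL3 remained called (adjusted p 0.0206, 0.0164 and 0.0164). Over the 17 other named genes, 203 of 267 alternative values stayed past the threshold, 64 did not, and 0 reversed. At 3 libraries per group and 3 reads as the smallest resolvable count, changes of CXCL1, CXCL5 and CXCL6 below the limits given, up to 0.0953 FPKM, were not detectable.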

Other observations

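The lincRNA gene AC112518.1 (ENSG00000228277, chromosome 4, 73710302 to 73714527, plus strand) ends 26.0 kb before the start of CXCL8, and its values were singled out after they were seen. It had 3, 4 and 1 reads with water and 29, 8 and 8 with TNF-α, or 0.137 ± 0.0793 and 0.893 ± 0.586 FPKM (n = 3 per group). The groups did not overlap, and TNF-α replicate 1 was the highest. Of all genes tested, 14.8% had every TNF-α library above every NC library. It was too low for the main test. In the fit without a minimum its log2 fold change was 0.70 with an adjusted p of 0.356 from limma, and an exact permutation test gave p = 0.1.

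Some genes of the lists separated the TNF-α libraries from each other, and these too were picked after their values were seen. NFKBIZ, an NF-kB cofactor, had 5.61, 2.09 and 2.34 FPKM in TNF-α replicates 1 to 3, and the NC libraries lay between 1.84 and 2.39. EGR1, an immediate early transcription factor, had 15.2, 5.26 and 5.43 FPKM in the TNF-α libraries against 5.78 to 6.18. NFKB2 went the other way, with 71.9, 150 and 129 FPKM against 15.8 to 18.7. For CSF3, the neutrophil growth factor G-CSF, the mean was 0.0884 ± 0.0298 FPKM in the NC group and 1.12 ± 0.473 in the TNF-α group. The groups did not overlap, beside 14.8% of all genes tested with every TNF-α library higher. CSF3 was too low for the main test.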
